A study of Mus musculus with 12 samples.

Results

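The genes described here belong to the small RNA pathways of the mouse egg: Dicer1, Drosha, Dgcr8, Ago2, Mael, Asz1, Rnf17, Ddx4, Piwil2 and Pld6. They were read from every Affymetrix probe set whose single gene symbol in the platform annotation was 1 of these 10 names, which gave 23 of 45037 probe sets. Of these, 13 probe sets covering 9 genes exceeded an intensity of 32 (log2 above 5) in at least 3 of the 12 arrays and were tested, while 10 probe sets, among them the only one of Piwil2, did not and are described by their values. Eggs of CF1 mice arrested at metaphase II were profiled in 4 groups of 3 independent biological replicates, each a pool of 30 eggs. Before maturation, full-grown oocytes received siRNA pools against both Dcp1a and Dcp2 (the double knockdown), against Dcp1a, against Dcp2, or with a control siRNA. All were then held for 20 h in milrinone, a phosphodiesterase inhibitor that keeps oocytes from resuming meiosis, and matured for 18 h without it. Dcp2 is the enzyme that removes the 5′ cap of mRNA and Dcp1a is its cofactor. The study asked what loss of these factors during maturation did to egg mRNAs. Every group, the control included, carried injected siRNA, and uninjected eggs were not analysed here.

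MicroRNAs are cut from hairpin transcripts in the nucleus by Drosha with its RNA-binding partner Dgcr8, and then in the cytoplasm by Dicer1. Ago2 is the Argonaute protein that slices matched targets, those of injected siRNAs included. In mouse oocytes the microRNA branch is known to be weakly active and Dgcr8 to be dispensable, while endogenous siRNAs, which need Dicer1 and Ago2 but not Drosha, hold down retrotransposons and some mRNAs. Much of the Dicer1 mRNA of mouse oocytes starts at a retrotransposon promoter inside the gene and encodes a shorter enzyme. The other members act in the piRNA pathway of germ cells. Piwil2 binds piRNAs, Pld6 is a mitochondrial nuclease of piRNA processing, Asz1 is a scaffold at mitochondria, and Mael, the helicase Ddx4 and the Tudor protein Rnf17 are components of germ granules, known chiefly from the male germ line.

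RefSeq promoter windows of GRCm38.p6, from 250 bases before to 50 bases after each annotated start, matched 7 of the 10 members with 8 windows. Windows of Ago2, Rnf17 and Piwil2 were not used here. Shown are the 4 members with both a window and a probe set that passed a test below, since these carry the changes. Capitals mark CCAAT, the E-box CACGTG, the Nrf1 motif (GCGC, any base, T, GCGC) and GGCGGGAA, searched on both strands.
Dicer1: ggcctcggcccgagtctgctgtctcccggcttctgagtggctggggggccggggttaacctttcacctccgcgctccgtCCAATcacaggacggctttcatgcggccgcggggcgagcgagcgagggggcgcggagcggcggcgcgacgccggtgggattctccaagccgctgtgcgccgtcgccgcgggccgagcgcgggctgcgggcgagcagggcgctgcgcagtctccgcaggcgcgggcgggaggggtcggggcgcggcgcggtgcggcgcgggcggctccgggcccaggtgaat
Drosha: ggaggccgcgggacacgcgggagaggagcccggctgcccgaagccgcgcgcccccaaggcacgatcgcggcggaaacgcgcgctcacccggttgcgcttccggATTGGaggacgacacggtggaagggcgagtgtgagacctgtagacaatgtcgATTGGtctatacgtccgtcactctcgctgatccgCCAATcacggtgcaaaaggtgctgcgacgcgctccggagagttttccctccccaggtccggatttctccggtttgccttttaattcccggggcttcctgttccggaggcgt
Mael: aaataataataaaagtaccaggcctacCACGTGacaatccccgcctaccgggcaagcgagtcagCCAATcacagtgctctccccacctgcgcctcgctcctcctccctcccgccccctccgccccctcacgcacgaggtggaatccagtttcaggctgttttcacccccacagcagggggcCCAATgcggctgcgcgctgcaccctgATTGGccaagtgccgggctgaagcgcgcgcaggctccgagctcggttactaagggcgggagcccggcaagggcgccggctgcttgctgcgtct
Asz1: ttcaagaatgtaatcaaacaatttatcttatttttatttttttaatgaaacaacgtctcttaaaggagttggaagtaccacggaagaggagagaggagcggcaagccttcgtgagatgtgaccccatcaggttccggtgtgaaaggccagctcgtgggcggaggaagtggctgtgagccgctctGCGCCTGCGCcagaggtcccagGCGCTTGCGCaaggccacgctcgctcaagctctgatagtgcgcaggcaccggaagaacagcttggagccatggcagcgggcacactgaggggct
These lie at chr12:104751903-104752202 (minus strand), chr15:12824565-12824864 (plus strand), chr1:166238695-166238994 (minus strand) and chr6:18109012-18109311 (minus strand). None of the marked matches overlaps another. The Dicer1 window held 49 CpG dinucleotides and that of Drosha 37, more than in 99.0% and 94.4% of all 32851 windows, whose median was 7. Mael had 24 (more than in 80.0% of windows) and Asz1 17 (68.6%). CCAAT stood in 6 of the 8 member windows and in 37.4% of all windows. In Drosha and Mael it occurred 3 times each and in Dicer1 once, and Asz1 had no match. The E-box stood in the windows of Mael, Ddx4 and 1 of 2 of Pld6, against 7.15% of all windows. The Nrf1 motif occurred 2 times in Asz1 and once in 1 Pld6 window, and stood in 4.6% of all windows. GGCGGGAA was found only in Ddx4 among the member windows and in 2.19% of all. These are matches of letters and say nothing about binding in the egg. Transcription is largely silent in a full-grown oocyte, and the promoter inside Dicer1 that oocytes use is not the window shown.

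Both targeted mRNAs were low where their siRNA had been given, by 2 of 3 tested probe sets for Dcp1a and by the 1 tested for Dcp2. The brightest Dcp1a probe set (1433606_at) averaged 791 ± 387 units in the double knockdown, 1011 ± 365 in the Dcp1a knockdown and 8031 ± 1990 in the Dcp2 knockdown, against 8632 ± 3553 in control eggs (mean ± SD, n = 3 each). Dcp2 (1455070_at) read 4.93 ± 0.0577, 46.2 ± 12.6, 4.97 ± 0.0577 and 48.1 ± 29.2 in the same order of groups. Its fall against control was at least 1.35-fold in both groups given Dcp2 siRNA. The other called Dcp1a probe set (1422131_at) averaged 5.6, 5.47, 24.6 and 40.3 units in that order. It was at least 1.25-fold lower where Dcp1a siRNA was given. Calls of these dim probe sets were lost when values under the filter were set to it. Of 12 fits that left out 1 array, 8 kept the Dcp2 call in the Dcp2 knockdown. The Dcp1a 1433606_at call in the Dcp1a knockdown was kept in 3. The Dcp1a probe set with no call (1431933_a_at) read 214.7, 237.6 and 102.1 in the double knockdown, 304.6, 118.3 and 257.6 in the Dcp1a knockdown, 1144.8, 47.2 and 2528.6 in the Dcp2 knockdown, and 3376.3, 277.9 and 25.9 in control eggs, with log2 changes against control of -0.74 and -0.46 in the groups given Dcp1a siRNA (adjusted p = 0.785 and 0.968, limma). Replicates correlated across all probe sets at r between 0.985 and 0.998. Yet 4 of the 12 arrays, all 3 controls and Dcp2 knockdown replicate 2, correlated best with an array of another group. Control arrays correlated with each other at r between 0.986 and 0.992, and Dcp1a knockdown arrays at 0.998. Control replicate 3 was the highest control array in 61.7% of the 768 probe sets called higher in the double knockdown than in control, and in 36.8% of all 11593 tested. Of 19 oocyte markers on the array 18 were tested, and 18 of 20 cumulus and granulosa markers stayed at or under 32 units on every array, Fshr, Amh and Has2 among them. The oocyte markers had 4 genes that rose and 0 that fell in the double knockdown against control, with a median log2 change of 0.41, against -0.02 over all probe sets tested (6.62% higher and 2.1% lower). Summed over the list, oocyte markers lay between 265535 and 280571 units in the double knockdown, 250883 and 272508 in the Dcp1a knockdown, 198451 and 242820 in the Dcp2 knockdown, and 195515 and 246968 in control eggs. The 2 cumulus and granulosa genes above the filter, Nr5a2 and Kitl, summed to between 1235 and 1498, 2362 and 2446, 1683 and 2602, and 1547 and 2153 units in the same order of groups. The part of these markers in the results below was not tested. The log2 ratio of 3′ to 5′ control probe sets lay between 7.26 and 7.39 for Gapdh in the double knockdown, 7.32 and 7.78 in the Dcp1a knockdown, 7.41 and 7.96 in the Dcp2 knockdown, and 6.6 and 7.46 in control eggs. For Actb it lay between 7.47 and 7.61, 7.06 and 7.36, and 6.47 and 7.84 in the same knockdown groups, while the control arrays read 7.9, 6.28 and 6.52. The part of these ratios in the results below was not tested.

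Among the nuclear processing genes, Drosha was higher in the double knockdown than in either single knockdown. Its tested probe set (1438505_s_at, a type whose probes can match more than 1 transcript) had intensities of 1007, 925.3 and 814.6 in the double knockdown. It had 240.5, 348.1 and 261.3 in the Dcp1a knockdown, 337.4, 391.4 and 333.8 in the Dcp2 knockdown, and 218.7, 379.3 and 706.9 in control eggs. All 3 double knockdown arrays lay above the other 9, and control replicate 3 was the nearest to them. Against the Dcp1a knockdown Drosha was higher by a log2 difference of 1.71 ± 0.34 (SE, limma, adjusted p = 0.00904), a 3.26-fold difference, with groups that did not overlap. Against the Dcp2 knockdown it rose by 1.37 ± 0.34, or 2.58-fold (adjusted p = 0.0377, limma). Against control the log2 change was 1.23 ± 0.34 and did not pass (adjusted p = 0.0503, limma). Without control replicate 3, the highest control, it was 1.66, with adjusted p = 0.00261 (limma). The 11 other fits that left out 1 array gave no call against control, and quantile normalization gave one. Over all settings tried this log2 change lay between 0.82 and 1.66, with adjusted p up to 0.255 (limma). The rise over the Dcp2 knockdown was kept only without control replicate 1 or 3 among the 12 fits that left out 1 array, with a log2 change between 1.16 and 1.45 over all settings tried. In these pools of eggs a difference in the number of eggs that carry a transcript and in the amount per egg cannot be told apart.

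The other Drosha probe sets were too dim to test. One of them (1428656_at) read 13.7, 11.6 and 21 units in the double knockdown, 8.2, 9.1 and 11.1 in the Dcp1a knockdown, 9.1, 9.1 and 9 in the Dcp2 knockdown, and 9.1, 9 and 9.2 in control eggs. All 3 of its double knockdown values were the highest of the 12, although far below 32 units. The remaining one (1438440_at) stayed between 5.1 and 7.6 units.

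Dgcr8, the partner of Drosha, was barely above the filter. Its brightest probe set (1435439_at) read 53.7, 42.8 and 44.9 in the double knockdown, 33.4, 38.9 and 29.7 in the Dcp1a knockdown, 40, 24.2 and 33.6 in the Dcp2 knockdown, and 25.1, 42.4 and 50.1 in control eggs. The double knockdown lay above both single knockdowns in every array and overlapped the controls. Its log2 change was 0.47 ± 0.27 against the Dcp1a knockdown and 0.32 ± 0.27 against control, and none of its tests passed (adjusted p from 0.256 to 0.925, limma). The other 3 Dgcr8 probe sets read between 4.9 and 20.7 units.

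Dicer1 gave unlike answers by its 2 probe sets. The dimmer one (1427941_at) read 186.6, 148.1 and 269.5 in the double knockdown, 55.1, 58.8 and 62 in the Dcp1a knockdown, 67.1, 62.5 and 54.7 in the Dcp2 knockdown, and 55.2, 50.3 and 145.9 in control eggs. Every double knockdown array was above all 9 others, the third control array by a small margin. This probe set rose by 1.74 ± 0.36 against the Dcp1a knockdown (log2, SE, adjusted p = 0.0107, limma), 1.67 ± 0.36 against the Dcp2 knockdown (adjusted p = 0.0183) and 1.40 ± 0.36 against control (adjusted p = 0.0365). Without control replicate 3 the last value was 1.89 (adjusted p = 0.00072, limma). The SE shares 1 spread over the 4 groups, whose log2 SD was 0.44, 0.09, 0.15 and 0.85 in the order above. A fit on only the double knockdown and control arrays lost the call against control. Of the 12 fits that left out 1 array, the call against control was kept only without control replicate 3 and without Dcp2 knockdown replicates 2 or 3, with adjusted p up to 0.21 over all settings. The call against the Dcp2 knockdown was lost without its replicate 3 and without double knockdown replicates 1 or 3, and that against the Dcp1a knockdown was lost in none of the 12.

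The brighter Dicer1 probe set (1460571_at) read 1387.4, 1400.3 and 1411.8 in the double knockdown, 1223.4, 1445.6 and 1245.2 in the Dcp1a knockdown, 1112.1, 1611.2 and 1104.7 in the Dcp2 knockdown, and 1502.7, 1065.1 and 1107.9 in control eggs. The 4 groups overlapped, and the change against control was 0.21 with a 95% interval from -0.23 to 0.65 (log2, limma). The difference between the changes of both probe sets was 1.19 on the log2 scale (p = 0.2, exact permutation test of 3 arrays against 3, two-sided, where 0.1 is the smallest p possible). Over the 12 arrays the pair correlated at r = 0.21.

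Ago2 did not pass in any comparison. Its brightest probe set (1426366_at) read 419.1, 402.9 and 408.8 in the double knockdown, 525.3, 475.2 and 527.3 in the Dcp1a knockdown, 434.4, 403.7 and 390.9 in the Dcp2 knockdown, and 496.1, 289.9 and 278.8 in control eggs. The Dcp1a knockdown lay above the double and the Dcp2 knockdown in every array, while control replicate 1 reached into its range. Its log2 change against control was 0.57 ± 0.21 in the Dcp1a knockdown (adjusted p = 0.853, limma) and 0.26 ± 0.21 in both other groups. Without control replicate 1, the highest control, the change passed in the Dcp1a knockdown (0.84, adjusted p = 0.0218, limma) and in the double knockdown (0.53, adjusted p = 0.0312). The 11 other fits that left out 1 array gave no call in either. Leaving out this array also gave 2451 called probe sets in the double knockdown against control, where all arrays gave 1011. The other 3 Ago2 probe sets read between 4.9 and 8 units.

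**Figure D1:**
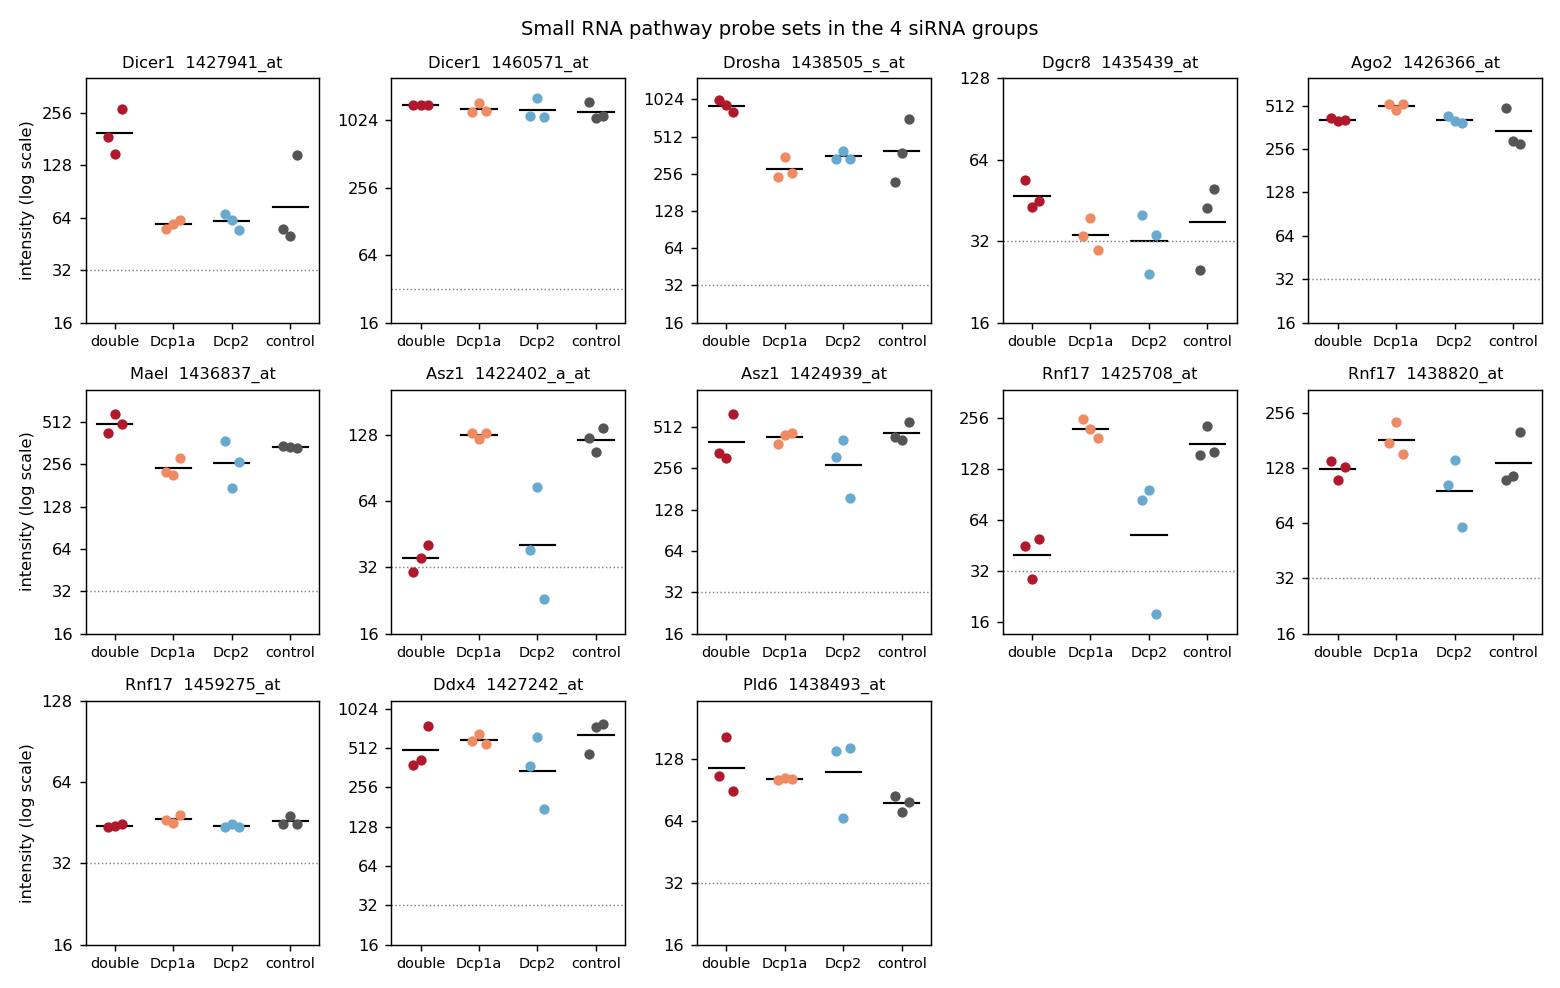
Intensity (log scale) of the 13 tested probe sets on each of the 12 arrays, by siRNA group. Points are arrays, bars are geometric means of 3 arrays, and the dotted line is the filter at 32 units. Dicer1 1427941_at and Drosha 1438505_s_at are highest in the double knockdown, and Asz1 1422402_a_at and Rnf17 1425708_at are lower in both groups given Dcp2 siRNA than in control eggs.

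Among the piRNA pathway genes, Asz1 and Rnf17 fell in the double knockdown, each by 1 probe set. The same probe sets read low in the Dcp2 knockdown, where neither passed the test against control. Asz1 1422402_a_at read 30.6, 35.2 and 40.3 in the double knockdown, 131, 122.8 and 130.2 in the Dcp1a knockdown, 38.3, 74.4 and 23.1 in the Dcp2 knockdown, and 123.2, 106.4 and 136.8 in control eggs. The 6 arrays given Dcp2 siRNA all lay below the 6 others. In log2 terms it fell by 1.79 ± 0.34 in the double knockdown against control (adjusted p = 0.00816, limma), to 28.9% of the control level. Against the Dcp1a knockdown the fall was -1.86 ± 0.34 (adjusted p = 0.00476). In the Dcp2 knockdown alone the change against control was -1.59 ± 0.34 with an unadjusted p = 0.000637, which did not pass over all probe sets (adjusted p = 0.308, limma). Among the 12 fits that left out 1 array it passed only without Dcp2 knockdown replicate 2 (-2.03, adjusted p = 0.0306, limma). Between the double and the Dcp2 knockdown the change was -0.20 with a 95% interval from -0.94 to 0.54. The fall in the double knockdown held in all 12 fits that left out 1 array, with adjusted p up to 0.0655 over all settings.

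The other Asz1 probe set (1424939_at) read 327.6, 302 and 637.5 in the double knockdown, 384.9, 448.7 and 460.3 in the Dcp1a knockdown, 310.5, 413.1 and 154.6 in the Dcp2 knockdown, and 430.5, 413.4 and 554.5 in control eggs. Double knockdown replicate 3 was the highest of all 12, so this group spanned the controls. Its change against control was -0.22 ± 0.36 in the double knockdown and -0.77 ± 0.36 in the Dcp2 knockdown, and neither passed (adjusted p = 0.713 and 0.425, limma). Both probe sets correlated at r = 0.63 over the 12 arrays. The difference between their changes in the double knockdown was -1.57 (p = 0.1, exact permutation test, two-sided, the smallest p that 3 arrays against 3 allow).

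Rnf17 1425708_at read 45.1, 28.8 and 49.3 in the double knockdown, 249.9, 218.2 and 193.7 in the Dcp1a knockdown, 84.3, 96.4 and 17.8 in the Dcp2 knockdown, and 154.2, 228.2 and 161.5 in control eggs. Here too all 6 arrays given Dcp2 siRNA were below the 6 others. Rnf17 fell by 2.16 ± 0.53 in the double knockdown against control (log2, SE, adjusted p = 0.0279, limma) and by 2.46 ± 0.53 against the Dcp1a knockdown (adjusted p = 0.0119), to 22.4% and 18.2% of those levels. In the Dcp2 knockdown the change against control was -1.77 ± 0.53 (adjusted p = 0.425, limma), with replicate 3 far below the other arrays of the group. The fall against control was lost when control replicate 2 or double knockdown replicate 1 or 2 was left out, and that against the Dcp1a knockdown when double knockdown replicate 2 was, with log2 changes from -2.31 to -1.92 against control over all settings. Without Dcp2 knockdown replicate 3 the double knockdown was also lower than the Dcp2 knockdown (-1.17, adjusted p = 0.0374, limma), where all arrays gave -0.39. The 11 other fits that left out 1 array gave no call in that comparison.

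Rnf17 had 3 further probe sets. Of these, 1438820_at read 140.2, 109.4 and 129 in the double knockdown, 174.1, 228.1 and 153.4 in the Dcp1a knockdown, 103.2, 141.3 and 61.2 in the Dcp2 knockdown, and 109.4, 115.8 and 200.4 in control eggs. The double knockdown lay within the range of the controls, with a change of -0.12 ± 0.32 (adjusted p = 0.823, limma). Another, 1459275_at, stayed between 43.5 and 48.5 units on all 12 arrays. The dimmest, 1425709_at, was not tested and exceeded 32 units on 1 array. It read 15.6, 16.6 and 15.6 in the double knockdown, 26.8, 13.7 and 24 in the Dcp1a knockdown, 21.3, 15.4 and 12.7 in the Dcp2 knockdown, and 45.5, 23.5 and 20.4 in control eggs. The double knockdown lay below the controls and within the range of each single knockdown. Of all tested probe sets 24.8% had no overlap between the double knockdown and control. The difference between the changes of 1425708_at and 1438820_at in the double knockdown was -2.04 (p = 0.1, exact permutation test, two-sided, the smallest p possible).

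**Figure D2:**
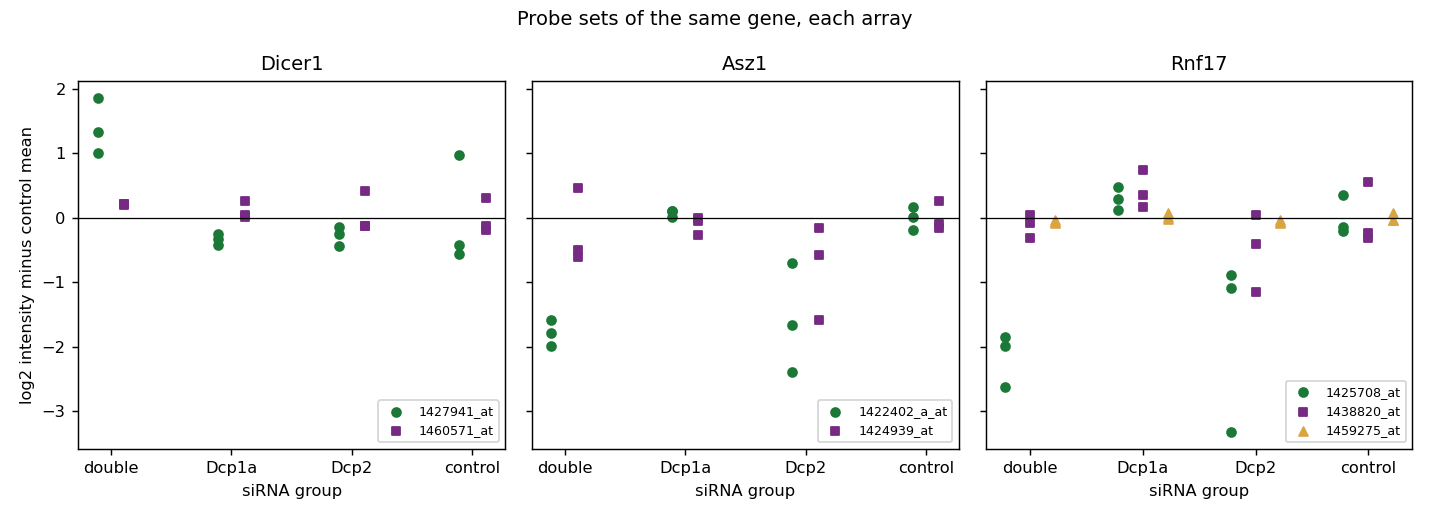
Log2 intensity of each array minus the mean of the 3 control arrays, for the tested probe sets of Dicer1, Asz1 and Rnf17. Points are arrays and symbols are probe sets. Within each gene 1 probe set departs from the control level in the double knockdown (Dicer1 by 1.40, Asz1 by -1.79, Rnf17 by -2.16) while the changes of the others are 0.21, -0.22, -0.12 and -0.05.

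Mael, a germ granule protein needed for retrotransposon silencing in the mouse male germ line, had values in the double knockdown above those of all other arrays. Its single probe set (1436837_at) read 426.8, 578.6 and 495.5 in the double knockdown, 225.7, 213.8 and 281.5 in the Dcp1a knockdown, 374.2, 174.7 and 266.4 in the Dcp2 knockdown, and 343.9, 340.4 and 335.3 in control eggs. The Dcp1a knockdown arrays were all below the controls, and the 3 controls differed by a factor of only 1.03. Mael rose by 1.06 ± 0.26 in the double knockdown against the Dcp1a knockdown (log2, SE, adjusted p = 0.0216, limma), a 2.08-fold difference. The values against the Dcp2 knockdown (0.94 ± 0.26, adjusted p = 0.0554) and against control (0.55 ± 0.26, adjusted p = 0.189) did not pass. Among the 12 fits that left out 1 array, the difference from the Dcp2 knockdown passed only without its replicate 1 (1.2, adjusted p = 0.0165, limma). The rise over the Dcp1a knockdown was lost in 3 of 12 fits that left out 1 array, those without Dcp1a knockdown replicates 1 or 2 and without double knockdown replicate 2.

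Ddx4, the Vasa helicase that marks germ cells, varied widely among the arrays given Dcp2 siRNA. It read 379, 412.9 and 759.9 in the double knockdown, 582.6, 650.1 and 548.4 in the Dcp1a knockdown, 375.9, 618 and 173.5 in the Dcp2 knockdown, and 462.1, 745.3 and 785.9 in control eggs (1427242_at). All groups overlapped, and no comparison passed. The log2 change was -0.40 ± 0.43 in the double knockdown and -0.92 ± 0.43 in the Dcp2 knockdown against control (adjusted p = 0.545 and 0.425, limma).

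Pld6 read 105.8, 163 and 89.1 in the double knockdown, 100.7, 103.5 and 101.8 in the Dcp1a knockdown, 139.5, 66.3 and 143.7 in the Dcp2 knockdown, and 84.4, 70.3 and 78.9 in control eggs (1438493_at). The double and Dcp1a knockdowns lay above every control array, and the Dcp2 knockdown spanned them. No Pld6 comparison passed, with a log2 change of 0.57 ± 0.30 in the double knockdown against control (adjusted p = 0.234, limma). Piwil2, the PIWI protein of the list, read between 5.2 and 5.3 units on every array (1449170_at), near the lowest value of the scale, 4.9. Whether this probe set detects Piwil2 mRNA in eggs was not tested.

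Counted together, 3 of the 13 tested probe sets differed between the double knockdown and control (23.1%), 1 higher and 2 lower, where 8.72% of all 11593 probe sets did (6.62% higher and 2.1% lower). At an unadjusted p under 0.05 it was 4 of 13, against 27.8% of all. Median centring of the arrays left 3 of 13 member probe sets called and gave a split of 699 higher to 364 lower among all probe sets, against 768 to 243 as deposited. The median log2 change of the members was 0.21, against -0.02 over all probe sets. In 6 of the 13 the groups did not overlap, where 24.8% of all probe sets had no overlap. Against the Dcp1a knockdown 5 of 13 differed in the double knockdown, 3 higher and 2 lower, against a background of 12.1% (8.27% higher and 3.79% lower). An unadjusted p under 0.05 (limma) was likewise found for 5 of 13, against 31.8% of all. In 9 of 13 the groups did not overlap, against 48.6% of all. Against the Dcp2 knockdown 2 of 13 were higher, those of Dicer1 and Drosha, and 0 lower, against 6.37% of all (6.12% higher and 0.25% lower). At an unadjusted p under 0.05 it was 3 of 13, against 15.8%, and 4 of 13 had groups that did not overlap, against 21.2%. With so few members these counts rest on 1 probe set each of Dicer1, Drosha, Mael, Asz1 and Rnf17. The comparisons share the double knockdown arrays, so their counts are not separate evidence.

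**Figure D3:**
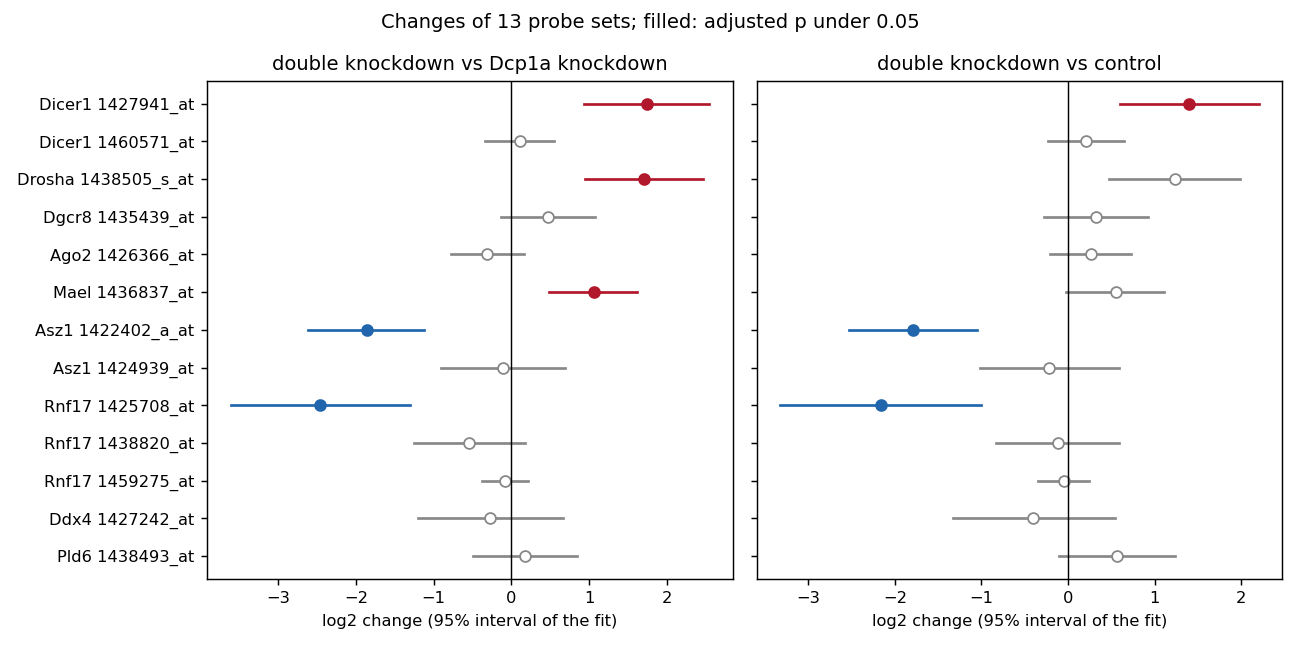
Log2 changes of the 13 tested probe sets with 95% intervals of the limma fit, in the double knockdown against the Dcp1a knockdown (left) and against control (right). Filled points passed an adjusted p of 0.05 over all 11593 probe sets, red for higher and blue for lower. Dicer1 1427941_at, Asz1 1422402_a_at and Rnf17 1425708_at passed in both panels, and Drosha and Mael only on the left.

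Either siRNA alone left these genes without a call. In the Dcp1a knockdown against control 0 of 13 probe sets passed in limma and 1, Ago2, had an unadjusted p under 0.05, where 0.0518% of all probe sets passed (0.0173% higher and 0.0345% lower) and 4.92% had such a p. In 2 of 13, Mael and Pld6, the groups did not overlap, against 11.6% of all. In the Dcp2 knockdown 0 passed and 2, Asz1 1422402_a_at and Rnf17 1425708_at, had an unadjusted p under 0.05, where 0.0173% of all passed (0% higher and 0.0173% lower) and 11.1% had such a p. In 3 of 13 the groups did not overlap, against 7.38% of all. These were Rnf17 1425708_at and both probe sets of Asz1. For Asz1 1424939_at the nearest arrays read 413.1 in the Dcp2 knockdown and 413.4 in control eggs. The median of all probe sets shifted by -0.11 in the Dcp2 knockdown, and median centring turned it to 0.07. Of the 13 member changes in that group 10 were negative, with a median of -0.27 as deposited and -0.10 after centring. The order of the levels, by geometric mean, was double, control, Dcp2 and Dcp1a knockdown from highest to lowest for Dicer1 1427941_at, Drosha and Mael, where neither single knockdown differed from control by the test. It was Dcp1a knockdown, control, Dcp2 knockdown and double for Asz1 1422402_a_at and Rnf17 1425708_at, where the first pair overlapped and the last pair overlapped.

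An interaction term asked, in log2 units, whether the double knockdown departed from the sum of its single parts. None of the 13 probe sets passed in limma, and 3 had an unadjusted p under 0.05, where 3.93% of all probe sets passed (3.9% higher and 0.0345% lower) and 11.6% had such a p. These were Dicer1 1427941_at, with a departure of 2.01 ± 0.51 (adjusted p = 0.057), Drosha, with 1.84 ± 0.49 (adjusted p = 0.0675), and Mael, with 1.45 ± 0.36 (adjusted p = 0.0518). Among the 12 fits that left out 1 array, Dicer1 passed only in those without 1 of the control arrays. Drosha passed only without control replicate 1 (adjusted p = 0.00769) and Mael only without Dcp2 knockdown replicate 1 (adjusted p = 0.0215, limma). For Dicer1 1427941_at, Drosha and Mael the single changes summed to -0.61, -0.61 and -0.90, and the double knockdown changes against control were 1.40, 1.23 and 0.55, of which that of Dicer1 passed. For Asz1 1422402_a_at and Rnf17 1425708_at the sums of the single changes were -1.51 and -1.47, and the double knockdown changes -1.79 and -2.16. Their departures were -0.27, with a 95% interval from -1.32 to 0.77, and -0.69, with one from -2.33 to 0.95. The departure of Ago2, -0.57 with all arrays, passed only without control replicate 1 (-0.84, adjusted p = 0.0378, limma).

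**Figure D4:**
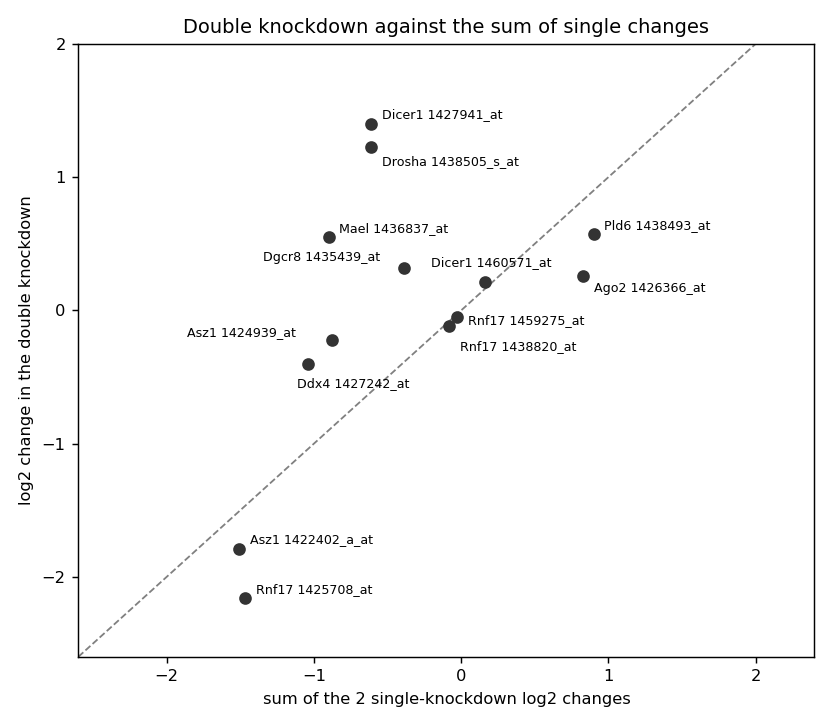
Log2 change against control in the double knockdown (y axis) set against the sum of the changes in the 2 single knockdowns (x axis), for 13 probe sets. Points are probe sets and the dashed line is additivity. Dicer1 1427941_at, Drosha and Mael lie above the line by 2.01, 1.84 and 1.45, and none of the departures passed the test.

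Other genes of the pathways were taken from 2 lists. Of 30 further microRNA and siRNA genes 18 were tested by their brightest probe set, and 1 rose and 0 fell in the double knockdown against control, where 6.62% of all probe sets were higher and 2.1% lower. The median log2 change was -0.06, against -0.02 over all probe sets. The one that rose was Hspa8, a chaperone that helps load Argonaute proteins, with 1.36 ± 0.26 (1455789_x_at, adjusted p = 0.00896, limma). It read 18203.1, 17845.5 and 12975.6 in the double knockdown and 5592.4, 5139.6 and 8635.8 in control eggs. Probe sets of the _x_at type, here and below, can match more than 1 transcript, as can those of the _s_at type. By other probe sets Tnrc6a, the GW182 protein that Argonautes recruit, was called lower, by at least 1.18-fold (1455128_x_at, adjusted p = 0.0163, limma). That probe set read 14.7, 12.1 and 23.3 in the double knockdown and 35.7, 36 and 42.3 in control eggs, and its call was lost when values under the filter were set to it. The other 6 Tnrc6a probe sets tested had log2 changes of -1.36 to -0.44 and none passed. Ncbp2, the small subunit of the nuclear cap-binding complex, changed by -0.78 ± 0.19 by 1 of 3 probe sets (1450847_at, adjusted p = 0.0297, limma).

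Of 29 further piRNA and germ granule genes 13 were tested, and 2 rose and 0 fell by the brightest probe set, against the same 6.62% and 2.1% of all probe sets. The median log2 change was -0.13. Kif17, a kinesin found in germ granules of mouse spermatids, rose by all 3 of its tested probe sets. The brightest (1419827_s_at) read 1112.3, 1770.5 and 984.7 in the double knockdown and 338.2, 245.8 and 333.6 in control eggs, a log2 change of 2.04 ± 0.32 (adjusted p = 0.00312, limma). Gtsf1, a zinc finger protein that PIWI proteins need for slicing, rose by both of its tested probe sets. The brighter (1441836_x_at) read 6259.3, 8142.6 and 4846.3 in the double knockdown, 1334.6, 1111.4 and 1247.9 in the Dcp1a knockdown, 2641.3, 930.3 and 2580.2 in the Dcp2 knockdown, and 1582.7, 1595 and 3685.4 in control eggs. Its change against control was 1.58 ± 0.43 (adjusted p = 0.0458, limma), kept without control replicate 3, Dcp2 knockdown replicates 2 or 3 or double knockdown replicate 3 and lost in the 8 other fits that left out 1 array. Hsp90aa1, a chaperone used in PIWI loading, was called higher by its dimmest tested probe set alone (1438902_a_at, 2.47 ± 0.56, adjusted p = 0.0204, limma). That probe set read 4670.5, 4243.9 and 5238.6 in the double knockdown and 515, 411.6 and 2894 in control eggs, with control replicate 3 the highest control as in Dicer1 and Drosha. It was lost without control replicate 2 and without double knockdown replicates 1 or 2. The brighter Hsp90aa1 probe sets had log2 changes of -0.02 ± 0.27 and -0.13 ± 0.20. In the single knockdowns against control 0 genes of either list passed (limma), where 0.0518% and 0.0173% of all probe sets passed in the Dcp1a and the Dcp2 knockdown. An unadjusted p under 0.05 was found for 1 of 18 genes of the microRNA and siRNA list and 0 of 13 of the piRNA list in the Dcp1a knockdown, against 4.92% of all probe sets. In the Dcp2 knockdown it was found for 2 of 18 and 0 of 13, against 11.1%.

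The gene whose pattern was most like that of each member, among 10458 other tested probe sets with 1 symbol, was found by Pearson's r over the 12 arrays. It was Zfand3 for Dicer1 1460571_at (r = 0.87), Cct2 for Drosha (0.978), Ndufc1 for Dgcr8 (0.879), Tnfsf13b for Ago2 (0.973) and Qrich1 for Mael (0.905). It was Actl6a for Asz1 1424939_at (0.966), Pbx2 for Rnf17 1438820_at (0.939), Vti1b for Ddx4 (0.975) and Myo9b for Pld6 (0.911). These are the highest of many values, and all points share the same 12 arrays and their scaling, so they are given as a description.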

How the data were processed

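Messenger RNA of 12 egg pools was amplified in rounds for small samples and read on 1-colour Affymetrix mouse arrays (per the labels' protocols). The authors deposited linear intensity values, 1 for each probe set of each array, made with GCRMA per the submitters' processing notes (version not given in the sources used here). Dim signals end at a floor of 4.9 in these values, which limits the folds that dim probe sets can show, and intensities are relative within an array. The number of arrays limits precision.

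Intensities were taken to log2. After 64 controls were left out, probe sets above log2 5 in at least 3 of 12 arrays were tested (11593). Named by the platform annotation, 34945 of 45037 had 1 symbol, and 0 of 34741 symbols matched by Entrez number differed from RefSeq. Groups were compared with limma 3.58.1 (R 4.3.3, lmFit and eBayes over all 12 arrays, two-sided, Benjamini-Hochberg over all tested probe sets, threshold 0.05). Errors of log2 changes are standard errors. Where the dimmer group's mean or median was at or under log2 5, the fold is a bound against that floor ("at least"), and does not include replicate spread. A simulation of all 12 arrays (11593 probe sets) gave each probe set the same spread in every group and changed some in the double knockdown. Against control it recovered 28 of 100 changes of 2-fold and 81 of 100 of 4-fold, with 9 false calls. Unequal spread between the groups was not simulated. Alternatives covered the filter, the floor, scaling, variance, a replicate block and leaving out each array.

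Members and lists were chosen with earlier results of these data known. All members are named; from the other lists genes called in the double knockdown against control are named, up to 6 a list, with the most alike gene of each member by r.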

Additional observations from a re-analysis of the deposited data

Results flagged for a closer look

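Departures of the double knockdown from additivity of the single knockdowns passed the limma test for 3 genes of the wider pathway lists. By probe set 1 of 41 passed in the microRNA and siRNA list and 3 of 20 in the piRNA list, all higher. Of all probe sets 3.93% passed (3.9% higher). By the brightest probe set it was 1 of 18 and 1 of 13 genes. Those named were picked among probe sets called in the double knockdown against control, which uses the same double knockdown and control arrays. The departures were 4.38 ± 0.79 for Hsp90aa1 (1438902_a_at, log2, SE, adjusted p = 0.0116), 2.54 ± 0.61 and 2.84 ± 0.59 for the probe sets of Gtsf1 (adjusted p = 0.0433 and 0.0226) and 1.56 ± 0.37 for Hspa8 (1455789_x_at, adjusted p = 0.0397). The Hsp90aa1 departure held in all 12 fits that left out 1 array, those of Gtsf1 in 4 each and that of Hspa8 in 3. The brighter Hsp90aa1 probe sets, 1426645_at and 1437497_a_at, had departures of -0.35 ± 0.38 and 0.03 ± 0.29 (adjusted p = 0.929 and 0.995, limma).

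A Drosha probe set too dim to be tested (1428656_at) averaged 15.4 units in the double knockdown, above each of the 3 control arrays, which read 9 to 9.2 units. This lies far below the filter at 32 units. Untested probe sets were flagged only where all arrays of a knockdown group lay above every control array. The direction of this one was thus set by that rule and says nothing about the tested Drosha probe set.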

How the results depend on the processing

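Leaving out 1 array at a time gave 444 to 2451 called probe sets in the double knockdown against control, where all arrays gave 1011. The count was 2451 when control replicate 1 was omitted, 460 when control replicate 2 was, 534 when double knockdown replicate 1 was and 444 when its replicate 2 was. Called member probe sets ranged from 1 to 4 in that comparison, from 3 to 5 against the Dcp1a knockdown, from 0 to 2 against the Dcp2 knockdown, from 0 to 3 for the interaction (3 without control replicate 1), and from 0 to 1 in each single knockdown. The member passing in a single knockdown was Ago2 without control replicate 1 and Asz1 1422402_a_at without Dcp2 knockdown replicate 2. Of the 10 called member changes, 4 were called under every such omission: Dicer1, Drosha and Asz1 against the Dcp1a knockdown, and Asz1 against control.

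With no filter on low values 527 probe sets were called in the double knockdown against control, with 0 members among them. Against the Dcp1a knockdown 1 member was called and against the Dcp2 knockdown 0. This setting adjusted over 45037 probe sets and shared the variance with those at the floor. The part of either in the lost calls was not tested. The filter at log2 7 gave 627 called probe sets and left some dim members untested, and a fit on only the 6 arrays compared gave 277. Against the Dcp2 knockdown 1 member was called under median centring and under quantile normalization, and quantile normalization called 1 member in the interaction, Dicer1; the cause was not tested. Of 1321 values of uncalled member changes under the alternatives 55 had the opposite sign, and no called change was reversed.

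Replicate numbers were fitted as a replicate block. It gave 819 called probe sets and 3 called members in the double knockdown against control, and 1 called member against the Dcp2 knockdown, where Drosha was lost. Deviations of same-numbered arrays correlated at r from -0.69 to 0.39 (median 0.09), and those of different-numbered arrays from -0.51 to 0.72 (median 0.02). Of 12 arrays 3 correlated best with their own number. With 3 arrays in a group these values cannot decide whether the numbers pair the arrays.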
